A study of Rattus norvegicus with 18 samples.

Results

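Heart allografts taken 7 days after transplantation were set against T cells collected on the same day, array by array within each treatment. The 6 arrays compared are 3 of graft and 3 of T cells, out of 18 arrays in the series. They were chosen by their labels alone, as every array of day 7. Hearts of inbred Wistar Furth rats had been placed in the abdomen of ACI recipients, all adult males, and the strains differ in their RT1 haplotype, the MHC of the rat. Each tissue has 1 array from untreated recipients, 1 from recipients given oral cyclosporine at 10 mg/kg/day on days 0 to 2, a dose described as below the therapeutic one, and 1 from recipients given that course plus 1 mg/kg of the allochimeric peptide [a1h1/u]-RT1.Aa into the portal vein at transplantation. Every recipient carried an allograft, so no array here comes from an untransplanted animal. The strain given for every sample is Wistar Furth, also for the T cells, and the labels give neither the organ the T cells came from nor how they were purified. Which arrays share an animal, and whether RNA was pooled, is likewise not given.

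Rejection of a transplanted heart is driven by recipient T cells that recognise donor MHC molecules, enter the graft and release interferon gamma. Interferon gamma switches on chemokines, antigen-processing proteins and MHC class II, also in cells of the graft itself, and it arms macrophages. Cytotoxic T cells and natural killer cells kill target cells with perforin, granzymes and Fas ligand. Whole graft tissue holds muscle, vessels, fibroblasts and infiltrating leukocytes together, so each graft reading is that of a mixture.

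Arrays of 1 tissue correlated at 0.979 to 0.994 over the tested probe sets and arrays of different tissues at 0.616 to 0.636. All 23 cardiomyocyte genes measured were higher in the grafts. Of the 23, 19 read low on every T cell array and were tested through the grafts alone. These 19 could hardly come out lower, so they add nothing to that count as a result. The summed intensity of the list ran from 216332 to 246288 in the grafts against 1516 to 1917 in the T cells. The T cell arrays thus carried little heart muscle signal. The T cell arrays read strongly for T cell markers and also for markers of other blood cells. Among them were Cd79b of the B cell receptor (2009, 2766 and 2409.7), the natural killer receptor Klrd1 (5123, 5405 and 5420.0), the macrophage receptor Csf1r (4093, 2332 and 2929), the secreted macrophage protein Cd5l (8225, 4556 and 6939) and the haemoglobin chaperone Ahsp (2733, 1109 and 2249), each given for untreated, cyclosporine and cyclosporine plus peptide in that order. The T cell level is therefore the level of these preparations, and the part that the other cells have in each difference was not tested. In bulk samples fewer cells of a type and less RNA per cell cannot be told apart.

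Intensities are quoted as deposited, in the same treatment order throughout. Differences are graft minus T cells on the scale log2(intensity + 16), as the mean of the 3 treatment pairs with the standard error of a limma fit (n = 3 pairs). With 1 array per tissue and treatment, the treatments serve as the replicates, and p-values measure only how far these samples differ among themselves, which can be technical. The median of all probe sets itself lay at -0.15, and at -0.22 and -0.24 after quantile normalization and median centring, so small differences should be read against that shift. Of all probe sets tested, 31.5% were called higher in the graft and 41.4% lower. A gene was called to exceed the T cell level when it was higher at an adjusted p below 0.05 over all 20199 probe sets tested. It was called to match when its difference lay within 0.5 of 0 and its 95% interval within 1 of 0, and to be lower when it was below at an adjusted p below 0.05 and outside that range. A pair of values after a difference is its 95% interval.

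Of 313 immune genes tested, out of 342 with a probe set and 431 list entries, 164 exceeded the T cell level inside the graft, 49 matched it and 100 were lower. The 29 others with a probe set read too low on most arrays to be tested. Over all 11181 genes tested, 34.3% exceeded the T cell level, 36% matched it and 29.5% were lower. The median difference of the immune genes was 0.38 against -0.09 for all genes. A difference of at least 1 on the log2 scale was found for 111 immune genes among those that exceeded, against 18.8% of all genes. All 3 graft arrays lay above all 3 T cell arrays for 166 immune genes (36.1% of all genes) and below them for 107 (43.3% of all genes). The 32 immune genes that lay under the 40th percentile on all 3 T cell arrays, such as Ccl2, Ido1 and Arg1, have T cell readings near the bottom of the scale, and their fold differences depend on the added 16. A gene was tested when it lay above that percentile on at least 3 arrays. These 32, like 907 of all 11181 genes, were therefore tested through the grafts alone. They could hardly come out lower, so they add nothing as a result to the counts above or to the counts of their lists below.

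**Figure D1:**
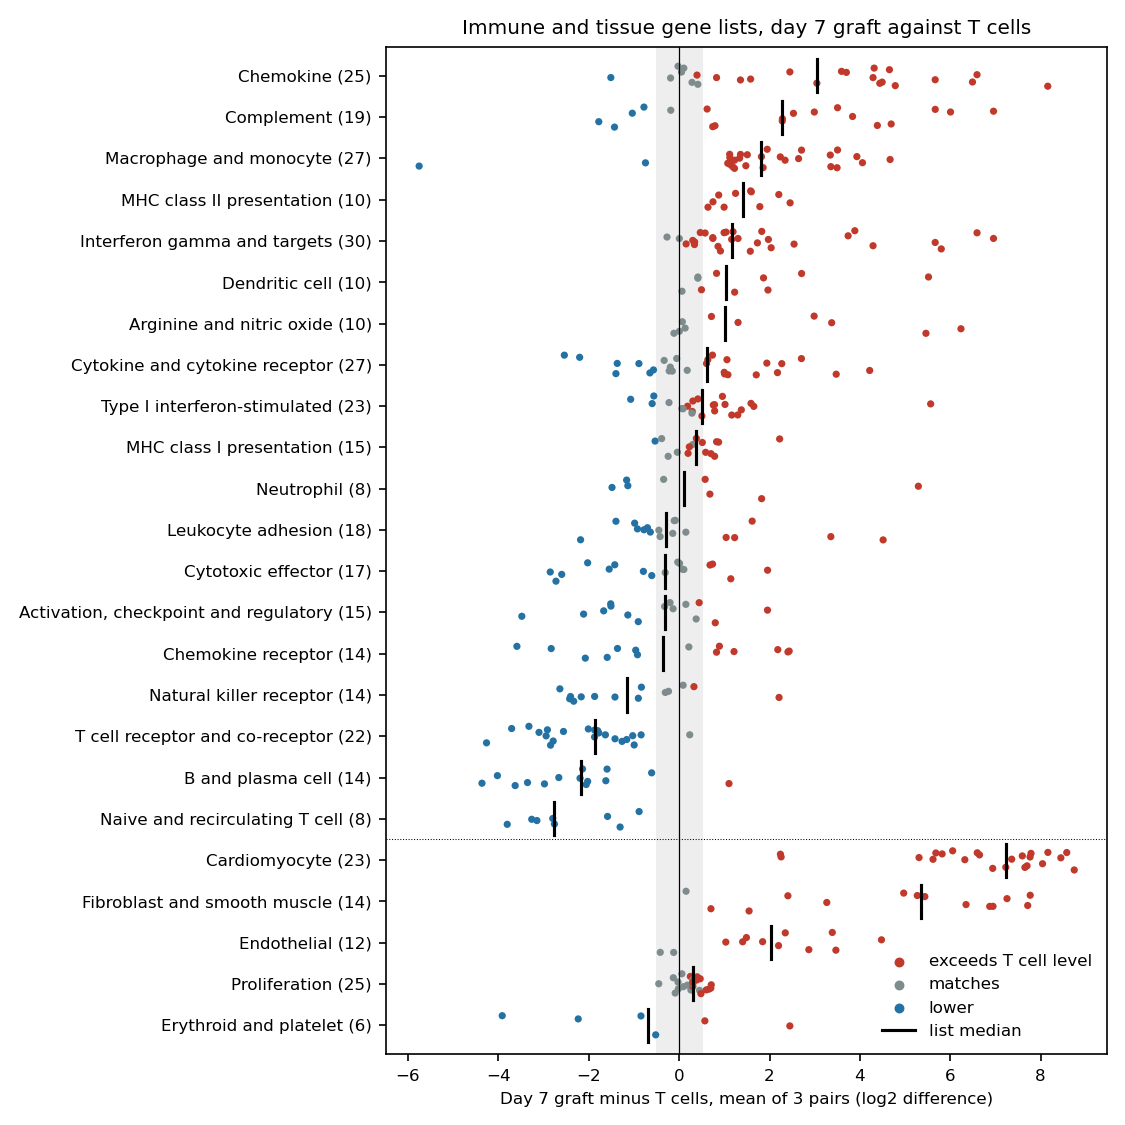
Day 7 graft minus T cell difference of every tested gene, by list, on the log2 scale, with the number of genes in parentheses and a black bar at each list's median. Red genes exceed the T cell level, grey genes match it and blue genes are lower; the grey band spans 0.5 either side of 0 and the dotted line parts immune lists from tissue and proliferation lists. Chemokine, complement, macrophage and MHC class II lists lie to the right, and T cell receptor, B cell and naive T cell lists to the left.

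**Figure D2:**
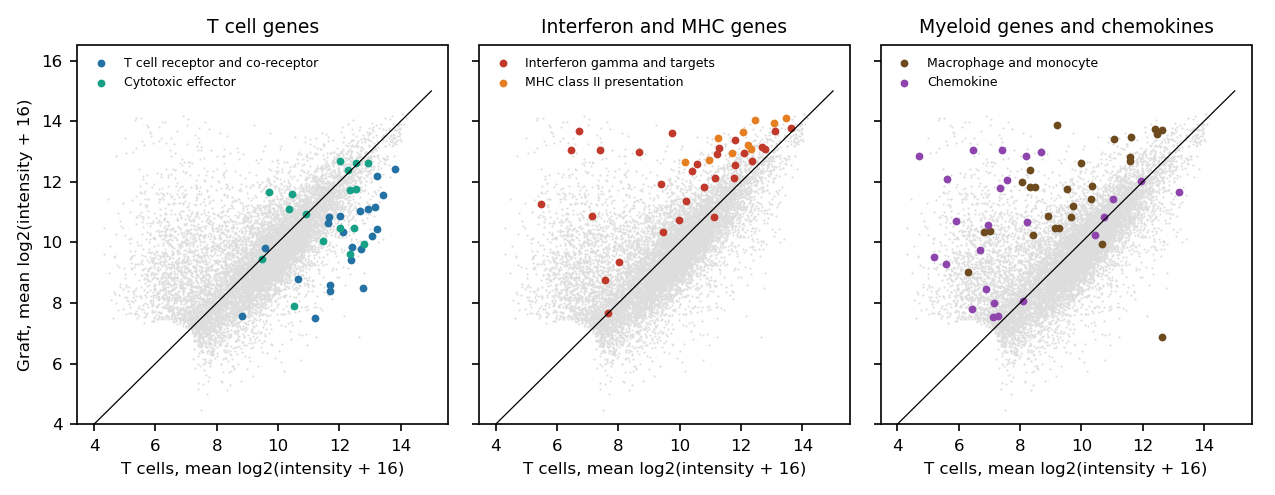
Mean log2(intensity + 16) of 3 graft arrays against that of 3 T cell arrays for all tested genes (grey) and 6 immune lists (colours), with the line of equal level. T cell receptor genes lie below the line apart from Cd4, while interferon gamma targets and MHC class II genes lie on or above it apart from Tap2.

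T cell receptor and co-receptor genes, with the adaptors and kinases they signal through, were mostly lower in the graft. Of 22 measured, 21 were lower in the graft and 1 matched, with a median difference of -1.87. Cd3d, a signalling chain of the T cell receptor complex, read 1926, 2458 and 2469 in the grafts and 8237, 9639 and 9779 in the T cells, with no overlap between the groups. Its difference was -2.01 ± 0.07 (adjusted p = 6.02e-07), a T cell level 4.03-fold that of the graft. Cd3e, another CD3 chain, read 4118, 5128 and 4918 in the grafts and 9566, 9739 and 9497 in the T cells. On this probe set it lay closer (-1.03 ± 0.08, adjusted p = 2.03e-05), but a further probe set lay at -1.90, near Cd3d. Both CD8 chains, which mark cytotoxic T cells, were lower. Cd8a read 2379, 2142 and 2098 in the grafts and 7347, 7727 and 8146 in the T cells (-1.80 ± 0.08, adjusted p = 2.15e-06) and Cd8b lay at -0.84 ± 0.09 (adjusted p = 9.81e-05). Further probe sets of Cd8a were called lower too, at -1.63 and -0.53. Proximal signalling genes were lower as well, with the kinases Lck at -1.42 ± 0.09 and Zap70 at -1.63 ± 0.10 and the adaptors Lat at -2.85 ± 0.08 and Sit1 at -4.26 ± 0.12, the lowest of the list. Cd4, the co-receptor of helper T cells that rat macrophages also carry, was the 1 gene of the list at the T cell level. It read 708, 991 and 999.8 in the grafts and 809, 722 and 730.5 in the T cells, with overlapping groups, and its difference was 0.23 (95% interval -0.11 to 0.58). Without the untreated arrays Cd4 was called higher, at 0.45.

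Genes of naive and recirculating T cells were lower without exception, all 8 of 8, with a median of -2.78. Lef1 and Tcf7, transcription factors of naive and memory T cells, differed most. Lef1 read 354, 545 and 619 in the grafts and 6775, 7096 and 7446 in the T cells (-3.81 ± 0.13) and Tcf7 read 622, 1260.5 and 1333 in the grafts and 9909, 9678 and 10083 in the T cells (-3.26 ± 0.20). In both, the untreated graft read lowest and no graft came near the T cell arrays. Il7r, the interleukin-7 receptor that keeps resting T cells alive, lay at -3.15 ± 0.10, the transcription factor Satb1 at -2.80 ± 0.13 and the diacylglycerol kinase Dgka at -2.76 ± 0.10. Klf2 (-1.58 ± 0.07) and S1pr1 (-1.31 ± 0.08), which govern the exit of T cells from lymphoid organs, and Foxp1 (-0.89 ± 0.14) were nearer to the T cell level.

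Cytotoxic effector genes split, with 4 of 17 above the T cell level, 5 matching and 8 lower, and a median of -0.31. Gzmb, the granzyme that triggers apoptosis in target cells, read 2566, 1887 and 2184 in the grafts and 1345, 1292 and 1289 in the T cells. Every graft array lay above every T cell array, and the difference was 0.74 ± 0.10 (adjusted p = 0.000374). Gzma, another granzyme, read 2127, 1872 and 1814 in the grafts and 2500.4, 1528 and 1853 in the T cells, with overlapping groups and a difference of 0.01 (95% interval -0.25 to 0.27). Faslg, the death ligand that engages Fas, read 603, 723 and 724 in the grafts and 718, 719 and 652 in the T cells and also overlapped, at -0.03 (-0.29 to 0.23). Prf1, which encodes the pore-forming perforin, read 3151, 3878 and 3320.5 in the grafts and 6362, 6426 and 5178 in the T cells. It was lower in the graft in every pair (-0.79 ± 0.09, adjusted p = 0.000145).

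Other granule genes spread over a wide range. Cst7, an inhibitor of granule cathepsins, exceeded the T cell level at 1.14 ± 0.13 (adjusted p = 0.000208), as did Lamp1, a lysosomal membrane protein exposed on killing cells (0.68 ± 0.08). On day 1 Lamp1 already read 5485, 5499 and 5511.5 in the grafts and 5427, 4082.5 and 3660 in the T cells. Hopx, a homeobox protein of effector T cells that heart muscle also makes, was the highest at 1.96 ± 0.09. Serpinb9, which protects cells from granzyme B, matched at 0.07 (-0.10 to 0.24), and so did the prothrombinase Fgl2 at 0.10. Further probe sets of Serpinb9 and Fgl2 were called higher, at 0.30 and 0.41. The granule proteoglycan Srgn matched by the interval rule at -0.31, although its arrays did not overlap and the limma test called it lower (adjusted p = 0.00204). Lower in the graft were Nkg7 (-0.61 ± 0.11), Ctsw (-1.42 ± 0.10), Rab27a (-1.55 ± 0.10), Gzmk (-2.03 ± 0.09), the transcription factor Eomes (-2.60 ± 0.11), Serpinb6b (-2.73 ± 0.13) and Gzmm (-2.85 ± 0.15). Granzyme genes therefore ranged from -2.85 for Gzmm to 0.74 for Gzmb. Granzyme and killer lectin genes have close paralogs, so the gene a probe set reads is less certain in these families.

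Natural killer receptors were mostly lower, 9 of 14, with 2 above and 3 matching. Ncr1, the activating receptor that defines natural killer cells, read 69.9, 181 and 147 in the grafts and 917, 1085 and 636 in the T cells, and its difference was -2.64 ± 0.25 (adjusted p = 7.33e-05). Klrd1 (CD94) at -2.33 ± 0.09, Klrb1a (NKR-P1A) at -2.42 ± 0.09 and Klrg1 at -2.40 ± 0.18 were lower by similar amounts, while Klrk1, which encodes NKG2D, lay at -0.90 ± 0.08. The inhibitory NKG2A gene Klrc1 read 590.1, 622 and 594 in the grafts and 583, 587 and 528 in the T cells and matched (0.09, -0.15 to 0.32), every graft array lying just above every T cell array, as did Klrc2 (-0.24) and Klrb1b (-0.31, -0.88 to 0.26), whose pairs differed in sign. Those above were Fcgr3a, the low-affinity IgG receptor that macrophages also carry, at 2.21 ± 0.11, and Tyrobp, the adaptor of many myeloid and natural killer receptors, at 0.33 ± 0.08. With all 18 arrays in the fit Tyrobp lost its call (adjusted p = 0.0644), leaving 1 above. Fcgr3a read 12204, 8586 and 8639.8 in the grafts and 2798, 1445 and 2214 in the T cells, highest in the untreated graft.

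Among 15 activation, checkpoint and regulatory genes, 3 exceeded the T cell level, 5 matched and 7 were lower. Il2ra, the interleukin-2 receptor alpha chain of activated and regulatory T cells, read 426, 506 and 497 in the grafts and 502, 529.5 and 537 in the T cells and matched at -0.13 (-0.38 to 0.11). Ctla4, an inhibitory receptor, read 298, 276 and 273 in the grafts and 339, 343 and 389 in the T cells; it matched by the interval rule, but every graft lay below every T cell array (-0.32). Cd44, a marker of antigen-experienced T cells, lay at 0.15 and Prdm1, which encodes Blimp-1, at -0.20. The co-stimulator Cd86 matched at 0.38 and the inducible co-stimulatory receptor Tnfrsf9 (4-1BB) exceeded at 0.44 ± 0.11, a call lost with all 18 arrays in the fit and without the cyclosporine arrays (adjusted p = 0.175 and 0.0795). Entpd1 and Nt5e, the ectoenzymes that turn ATP into adenosine, exceeded at 1.96 ± 0.16 and 0.80 ± 0.10. Both already read above the T cells on day 1. Entpd1 then read 376, 249 and 254 in the grafts and 155, 53.1 and 42.5 in the T cells. Nt5e read 2543, 2426 and 2324 in the grafts and 539, 619 and 554 in the T cells on that day. Lower were Icos (-0.90 ± 0.11), Tnfrsf4 (-1.14 ± 0.10), Il2rb (-1.51 ± 0.13), Batf (-1.51 ± 0.09), Cd69 (-1.67 ± 0.11), Ikzf2 (-2.11 ± 0.14) and Cd40lg, the helper ligand for B cells and macrophages, at -3.48 ± 0.15. Cd40lg read 63.1, 119 and 78.4 in the grafts and 964, 1132 and 1231 in the T cells.

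**Figure D3:**
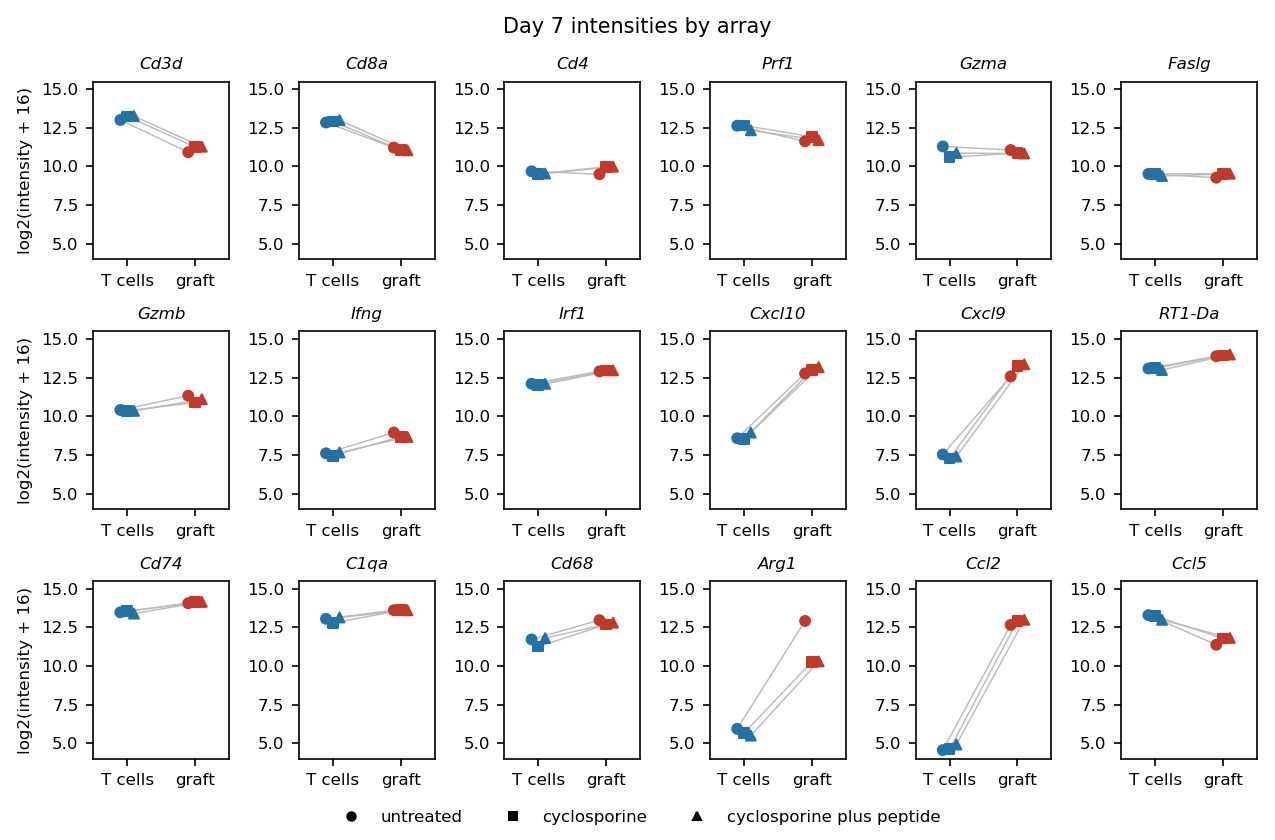
Log2(intensity + 16) of 18 genes on the 3 T cell arrays (blue) and the 3 graft arrays (red) of day 7, with marker shapes for treatment and lines joining arrays of 1 treatment. Cd3d, Cd8a, Prf1 and Ccl5 are lower in the graft, Cd4, Gzma and Faslg overlap, and the interferon targets, MHC class II genes, macrophage genes and Ccl2 are higher; Arg1 is highest in the untreated graft.

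Interferon gamma and its targets lay above the T cell level with few exceptions. Of 30 genes, 28 exceeded the T cell level, 2 matched and 0 were lower, with a median of 1.18. Among the 30, 3 were tested through the grafts alone and could hardly come out lower. Ifng itself, the cytokine, read 478, 393 and 389 in the grafts and 178, 159 and 185 in the T cells. The groups did not overlap and the graft level was 2.29-fold that of T cells (1.19 ± 0.13, adjusted p = 0.000123). The receptor chains exceeded as well, Ifngr2 at 1.16 ± 0.12 and Ifngr1 at 0.34 ± 0.08, the latter losing its call with quantile normalization, at 0.16. Of the regulators, Irf1, an interferon regulatory factor induced by interferon gamma, read 7656, 7938 and 8016 in the grafts and 4398, 4214 and 4366 in the T cells (0.86 ± 0.06, adjusted p = 1.76e-05), and Irf8 lay at 0.99 ± 0.11, the feedback inhibitor Socs1 at 0.91 ± 0.10 and Batf2 at 3.74 ± 0.14. A further probe set of Socs1 matched, at 0.11.

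The chemokines that interferon gamma induces had large differences. Cxcl9 read 6117, 9743 and 10520.4 in the grafts and 169, 139 and 152 in the T cells. Cxcl10 read 6970.4, 8088 and 9229 in the grafts and 366, 354 and 476 in the T cells. Cxcl11, the third ligand of the receptor CXCR3, read 8534, 7949.8 and 8955 in the grafts and 68.0, 77.6 and 70.3 in the T cells. None of the 3 overlapped between tissues, and the differences were 5.67 ± 0.18, 4.29 ± 0.09 and 6.59 ± 0.10. All 3 already read higher in the grafts on day 1, with Cxcl11 at 2610, 2621 and 2627 against 60.1, 74.1 and 89.5 in the T cells. Cxcl9 was lowest in the untreated graft. Ido1, which breaks down tryptophan and restrains T cells, read 2831, 2219 and 2413 in the grafts and 23.2, 34.4 and 29.2 in the T cells (5.80 ± 0.16, adjusted p = 3.08e-07). Serping1, the C1 inhibitor gene, had the widest gap of the list at 6.96 ± 0.11. It already read 7376, 6435 and 6923 in the grafts and 117, 59.6 and 60.8 in the T cells on day 1. Ubd, a ubiquitin-like modifier, read 11553, 12699 and 13644 in the grafts and 803, 698 and 1043 in the T cells, at 3.89 ± 0.10. Wars1, an aminoacyl tRNA synthetase induced by interferon gamma, lay at 2.04 ± 0.08, Gch1, which makes the cofactor of nitric oxide synthases, at 1.30 ± 0.25 and the macrophage gene Aif1 at 0.75 ± 0.11, with a further probe set at 0.44 that was not called.

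The interferon-inducible GTPases, which act on membranes that enclose intracellular microbes, were higher in the graft for all 5 on the list. Igtp read 8039, 7664 and 7720.0 in the grafts and 2405, 2167 and 2454 in the T cells. Irgm2 read 10592, 10649 and 10652 in the grafts and 3872, 3372 and 3450.3 in the T cells. Neither overlapped, and their differences were 1.73 ± 0.07 and 1.57 ± 0.07, with Irgm at 1.97 ± 0.07, Gbp2 at 1.83 ± 0.07 and Gbp4 at 0.74 ± 0.08. These genes have near-identical relatives, so readings may be shared among them. Most antigen-processing genes of the list exceeded too. Tap1, a subunit of the peptide transporter, lay at 1.04 ± 0.07, the immunoproteasome subunits Psmb9, Psmb10 and Psmb8 at 0.57 ± 0.05, 0.34 ± 0.07 and 0.30 ± 0.06, and the proteasome activator subunits Psme2 and Psme1 at 0.47 ± 0.07 and 0.15 ± 0.05. A further probe set of Psme1 lay at -0.18 and was not called, and Psme1 lost its call with median centring, at 0.06, and in 2 of the fits that left out a treatment. Psmb8 lost its call with quantile normalization, at 0.13. Tap2, the partner of Tap1, matched by the interval rule at -0.27, but all grafts lay below all T cell arrays and the limma test called it lower (adjusted p = 0.0278), a call lost in 3 alternatives. Nos2, the inducible nitric oxide synthase, read 206, 174 and 187 in the grafts and 185, 177 and 204 in the T cells (0.00, 95% interval -0.31 to 0.32).

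Promoters of 4 of these genes are shown for the 150 bases before the annotated transcript start, from RefSeq (GRCr8), because they hold short motifs known from interferon-responsive promoters. Capitals mark matches to a gamma-activated site, TTCNNNGAA, or to an interferon-stimulated element, GAAA, any 2 bases and GAAA again, both searched on both strands. In Igtp and Irgm2, where both occur, the gamma-activated site comes first.
Igtp (chr10:42874897-42875046, plus strand): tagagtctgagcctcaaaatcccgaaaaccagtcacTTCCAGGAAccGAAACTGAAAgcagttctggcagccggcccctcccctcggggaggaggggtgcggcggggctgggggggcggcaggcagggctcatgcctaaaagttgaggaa
Irgm2 (chr10:42889820-42889969, plus strand): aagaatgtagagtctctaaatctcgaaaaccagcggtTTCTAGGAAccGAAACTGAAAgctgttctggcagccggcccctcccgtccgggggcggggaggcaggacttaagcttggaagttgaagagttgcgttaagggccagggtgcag
Irf1 (chr10:38417785-38417934, plus strand): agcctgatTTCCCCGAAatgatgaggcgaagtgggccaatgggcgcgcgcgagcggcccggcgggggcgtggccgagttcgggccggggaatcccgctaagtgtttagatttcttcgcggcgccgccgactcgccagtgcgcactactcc
Tap1 (chr20:4668544-4668693, minus strand): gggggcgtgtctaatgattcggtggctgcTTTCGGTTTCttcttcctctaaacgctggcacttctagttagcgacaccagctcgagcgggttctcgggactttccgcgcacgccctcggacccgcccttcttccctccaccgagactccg
Igtp and Irgm2 share the arrangement, with the gamma-activated site starting 114 and 113 bases before the start and the interferon-stimulated element 103 and 102 bases before it. The match in Irf1 is a gamma-activated site at 142 bases, and that in Tap1 an interferon-stimulated element on the other strand at 121 bases. Over 250 bases, 8 of 25 promoters matched for this list held the gamma-activated site (7.52% of all 27457 promoters) and 12 of 25 the interferon-stimulated element (3.29%). Of 17 matched promoters of the T cell receptor list, 2 held the first and 0 the second. A match is a description of the letters and not evidence of binding.

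Type I interferon-stimulated genes exceeded in 16 of 23 cases, with 4 matching, 3 lower and a median of 0.50. Ifitm3, a membrane protein that restricts viral entry and is made by many stromal cells, read 7094, 8686 and 9572 in the grafts and 148, 148 and 191 in the T cells (5.57 ± 0.09). Ifit3 at 1.65 ± 0.15, Usp18 at 1.59 ± 0.10, the ubiquitin-like Isg15 at 1.38 ± 0.12, Ifit2 at 1.30 ± 0.09 and Stat2 at 1.16 ± 0.07 followed. Irf7, the regulator of type I interferon production, lay at 0.78 ± 0.10. The antiviral GTPases differed from each other: Mx2 read 1692, 1768 and 1812 in the grafts and 814, 835 and 938 in the T cells (1.02 ± 0.08) and Mx1 read 2991, 2979 and 3315 in the grafts and 4834, 4526 and 4354 in the T cells (-0.56 ± 0.08). Ifi44 (-0.60 ± 0.09) and Ifi44l (-1.07 ± 0.08) were lower too. Matching genes were Ifih1 (0.28), Trim25 (0.09), Oas1a (0.06) and Rsad2 (-0.22).

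MHC class II genes exceeded the T cell level in all 10 of 10 cases, with a median of 1.42. Ciita, the master activator of class II genes, counted with the interferon gamma targets, read 3895, 3779 and 4077 in the grafts and 664, 680.4 and 632 in the T cells and lay at 2.54 ± 0.08 (adjusted p = 6.57e-07). On the probe sets used, the peptide-loading genes RT1-DMa and RT1-DMb had the highest differences of the 10. RT1-DMa read 6804, 6059 and 6222 in the grafts and 1067, 1153 and 1221 in the T cells, at 2.46 ± 0.09, and RT1-DMb lay at 2.21 ± 0.07. The antigen-presenting chains RT1-Ba, RT1-Bb, RT1-Db1 and RT1-Da lay at 1.79 ± 0.09, 1.58 ± 0.08, 1.60 ± 0.08 and 0.88 ± 0.06. Further probe sets of RT1-Ba lay at 1.78 and 0.32, both called higher, and at 0.20, a match. A further probe set of RT1-Bb lay at 5.61, above RT1-DMa and RT1-DMb. Donor and recipient differ in RT1 haplotype, so the size of single RT1 class II differences is uncertain. RT1-Da read 15125, 15644 and 16311 in the grafts and 8704, 8808 and 8136 in the T cells, so the T cell preparations carried much of this signal themselves. Cd74, the invariant chain that guides class II molecules, read 17139.8, 17823 and 18182 in the grafts and 11411, 11972 and 10761 in the T cells (0.64 ± 0.06), and the endosomal processing enzymes Ifi30, Ctss and Lgmn lay at 1.25 ± 0.07, 0.99 ± 0.06 and 0.75 ± 0.08. A further probe set of Lgmn matched, at -0.36.

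The promoters of RT1-Da and RT1-Ba are shown in the same way, with capitals on the Y box, CCAAT on either strand, an element bound by NF-Y in class II promoters.
RT1-Da (chr20:4515265-4515414, plus strand): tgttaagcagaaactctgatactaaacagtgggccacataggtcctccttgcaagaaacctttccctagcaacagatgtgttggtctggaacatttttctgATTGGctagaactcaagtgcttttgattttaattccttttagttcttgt
RT1-Ba (chr20:4576907-4577056, plus strand): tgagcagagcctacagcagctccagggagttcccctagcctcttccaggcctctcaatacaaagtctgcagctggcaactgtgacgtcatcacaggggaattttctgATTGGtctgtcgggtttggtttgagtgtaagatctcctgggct
Both matches read ATTGG on the gene's strand, 49 and 43 bases before the start. Over 250 bases, 7 of 9 matched class II promoters held CCAAT, against 34.3% of all promoters and 3 of 17 of the T cell receptor list.

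MHC class I presentation exceeded in 10 of 15 cases, with 4 matching and 1 lower and a smaller median, 0.38. B2m, the light chain of class I molecules, read 18814, 19286 and 19946 in the grafts and 17150.0, 16934 and 16542 in the T cells. Its difference was 0.20 ± 0.05 (adjusted p = 0.00995) and lost its call with median centring, at 0.10. RT1-T24-4 stood highest at 2.22 ± 0.08, and RT1-S3 (0.83 ± 0.07), RT1-N3 (0.51 ± 0.09) and RT1-CE10 (0.23 ± 0.07) exceeded by less. RT1-CE10 lost its call in 4 alternatives, among them median centring (0.13) and quantile normalization (0.11). RT1-CE5 read 6746, 6649 and 6589 in the grafts and 7694, 6380.0 and 6547 in the T cells and matched (-0.04), although 1 of 3 further probe sets was called higher at 0.23 and quantile normalization called the first lower at -0.24. RT1-M3-1 (-0.24) and RT1-CE16 (-0.39) matched by the interval rule, with all grafts below all T cell arrays. RT1 class I genes are near-identical copies that vary between rat strains, and donor and recipient differ there, so single RT1 readings are uncertain. The loading factors Tapbp, Calr and Pdia3 lay at 0.38 ± 0.07, 0.87 ± 0.07 and 0.70 ± 0.07, with Tapbp not called without the cyclosporine arrays (0.36). Nlrc5, the class I counterpart of Ciita, was the gene of this list called lower (-0.53 ± 0.09). The peptide trimmer Erap1 lay at 0.59 ± 0.07, but 1 of 2 further probe sets was called in the opposite direction, at -1.58.

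Macrophage and monocyte genes exceeded the T cell level in 25 of 27 cases, each by more than 1 on the log2 scale, with a median of 1.82 and a summed intensity of 130011 to 148680 in the grafts against 38418 to 53510.0 in the T cells. Cd68, a lysosomal macrophage marker, read 8020.5, 6608 and 7152 in the grafts and 3369.5, 2439 and 3577 in the T cells (1.23 ± 0.09, adjusted p = 2.17e-05). Cd14, the lipopolysaccharide co-receptor, read 6430.5, 5025 and 4586 in the grafts and 358, 173 and 443 in the T cells (4.06 ± 0.23), and the apolipoprotein gene Apoe, also made outside macrophages, lay at 4.67 ± 0.19. The folate receptor Folr2 (3.93 ± 0.10), the complement receptor C5ar1 (3.51 ± 0.10), the macrophage elastase gene Mmp12 (3.50 ± 0.20), Itgam (3.36 ± 0.17), which encodes CD11b, and Ms4a7 (3.35 ± 0.09) were next. The pathogen sensors Tlr2 and Tlr4 lay at 1.95 ± 0.10 and 1.82 ± 0.10, and the growth factor receptor Csf1r at 1.13 ± 0.11. Exceptions were Cd163, the haemoglobin scavenger receptor, at -0.75 ± 0.14, and Cd5l, which read 89.7, 129 and 92.9 in the grafts and 8225, 4556 and 6939 in the T cells, at -5.75 ± 0.23. The T cell arrays thus held more of these 2 macrophage transcripts than the grafts did, while reading lower for the other 25. Of the 27 genes, 2 were tested through the grafts alone and could hardly come out lower.

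Of 10 arginine and nitric oxide genes, 6 exceeded and 4 matched. Among the 10, 3 were tested through the grafts alone and could hardly come out lower, so they add nothing to that count. Arg1, arginase 1, read 7743, 1218 and 1247 in the grafts and 45.4, 34.8 and 29.3 in the T cells. The untreated graft stood far above the other 2, and the difference was 5.46 ± 0.42 (adjusted p = 2.59e-05). Ass1, which rebuilds arginine from citrulline, read 6958, 4279.6 and 4087 in the grafts and 53.4, 47.4 and 49.2 in the T cells (6.24 ± 0.15) and was also highest without treatment. Ddah1 (2.99 ± 0.11) and Ddah2 (3.38 ± 0.26), which clear inhibitors of nitric oxide synthase, exceeded too. The arginine transporter Slc7a1 (0.07), Asl (-0.12) and Odc1 (0.13) matched.

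Dendritic cell genes were above the T cell level in 7 of 10 cases and matched in 3. Of the 10, 3 were tested through the grafts alone and could hardly come out lower, so they add nothing to that count. Clec9a, a receptor of cross-presenting dendritic cells, read 733, 1154 and 1075 in the grafts and 164, 174 and 83.9 in the T cells (2.71 ± 0.24), and Flt3, the growth factor receptor of the lineage, read 156, 273 and 253 in the grafts and 59.6, 56.8 and 33.9 in the T cells (1.87 ± 0.24). In both the untreated graft was the lowest of 3. Clec10a, a lectin of dendritic cells and macrophages, lay at 5.52 ± 0.12, Itgax (CD11c) at 1.23 ± 0.08, Fscn1 at 1.97 ± 0.18 and Batf3 at 0.49 ± 0.15. A further probe set of Fscn1 matched, at 0.36, and Batf3 was not called without the untreated arrays, at 0.33. Cd83, a maturation marker, matched (0.06, -0.13 to 0.26). Neutrophil genes gave no common direction, with 4 above, 1 matching and 3 lower of 8. Of the 8, 2 were tested through the grafts alone and could hardly come out lower. Lcn2, which neutrophils and injured tissue make, read 1735, 1589 and 3299 in the grafts and 57.8, 31.4 and 28.1 in the T cells (5.29 ± 0.29), while S100a9 and S100a8, the calprotectin subunits, lay at -1.14 ± 0.10 and -1.16 ± 0.12. With the spread taken from all 18 arrays, 2 of the 4 genes above were called, and S100a9 and S100a8 both lost their calls.

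Chemokines had the highest median of the immune lists, 3.05, with 18 of 25 above, 6 matching and 1 lower. Of the 25, 10 lay under the 40th percentile on all T cell arrays and were tested through the grafts alone. Those 10 could hardly come out lower, so the count above and the median partly reflect the filter. Ccl2, which draws monocytes, read 6470.4, 7808 and 8137 in the grafts and 7.70, 8.70 and 14.3 in the T cells, at 8.16 ± 0.11 (adjusted p = 4.07e-08). Its day 1 readings were already 5561, 4908 and 5514.5 in the grafts against 222, 9 and 29 in the T cells. Ccl7 shares the receptor CCR2 with it and read 3298, 4918 and 5136 in the grafts and 41.3, 24.2 and 34.1 in the T cells (6.49 ± 0.20). Cxcl16 (4.65 ± 0.14), Cx3cl1 (4.78 ± 0.12), Ccl9 (4.32 ± 0.16), Cxcl12 (4.44 ± 0.22) and the B cell attractant Cxcl13 (4.49 ± 0.24) followed. Ccl19 and Ccl21, ligands of CCR7 on naive T cells and dendritic cells, lay at 3.59 ± 0.34 and 3.05 ± 0.12.

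Ccl5, a chemokine that T cells and natural killer cells make themselves, was the gene of the list called lower. It read 2652, 3519.9 and 3598 in the grafts and 10064, 9617 and 8134 in the T cells, with all grafts below all T cell arrays (-1.51 ± 0.13, adjusted p = 4.51e-05). Xcl1, lymphotactin, read 1512, 1933 and 2092 in the grafts and 1479, 1896 and 1756 in the T cells, at 0.10 (-0.10 to 0.31). Of the macrophage inflammatory proteins, Ccl3 matched at -0.19 and Ccl4 exceeded at 0.40 ± 0.09. Ccl6 (0.05), Cxcl3 (-0.02), Ccl22 (0.41) and Ccl24 (0.28) matched as well.

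Among chemokine receptors 6 of 14 were above the T cell level, 1 matching and 7 lower. Ccr2, the monocyte receptor for Ccl2 and Ccl7, read 574, 679 and 656 in the grafts and 162, 84.7 and 86.9 in the T cells (2.41 ± 0.22). Ccr1, a receptor of monocytes and other leukocytes, read 1148, 494 and 575 in the grafts and 88.1, 125 and 135 in the T cells (2.43 ± 0.30), highest in the untreated graft. Cxcr3, the receptor of activated T cells for Cxcl9, Cxcl10 and Cxcl11, read 1342, 1791 and 1928 in the grafts and 5241, 5207 and 4748 in the T cells, with no overlap (-1.59 ± 0.12, adjusted p = 2.66e-05). Ligands and receptor thus differed in opposite directions. The lymphocyte receptors Ccr4 (-3.59 ± 0.15), Ccr6 (-1.37 ± 0.11), Cxcr4 (-0.96 ± 0.08) and Cxcr5 (-0.92 ± 0.17) were lower. A further probe set of Cxcr5 lay further down, at -3.16.

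Cytokines and their receptors gave 14 above, 6 matching and 7 lower of 27 tested, with 11 of 38 left untested at low intensity, Il2, Il4 and Il6 among them. Of the 27, 5 were tested through the grafts alone and could hardly come out lower, so they add nothing to the count above. Il33, an alarm cytokine of stromal cells, read 1129, 1022 and 1230.4 in the grafts and 49.0, 42.8 and 44.3 in the T cells (4.22 ± 0.12). Il1rn, the interleukin-1 receptor antagonist, lay at 3.48 ± 0.18, with an untreated graft reading (1224, 666 and 648) above the other 2, and the inhibitory cytokine Il10 read 273, 192 and 195 in the grafts and 38.0, 21.4 and 6.60 in the T cells (2.71 ± 0.21). Il18bp, the inhibitor of interleukin-18, lay at 2.27 ± 0.09, Il18 itself at 1.06 ± 0.14, Il1b at 1.01 ± 0.14, Il1a at 1.00 ± 0.17 and Ebi3 at 1.08 ± 0.12. Il1b lost its call with all 18 arrays in the fit (adjusted p = 0.0538). Il15, which sustains cytotoxic cells, matched at -0.20 (-0.43 to 0.04), as did Il10ra, Il12b, Tnfsf11 and Il4r. Tgfb1 matched by the interval rule at -0.22, but all grafts lay below all T cell arrays and the limma test called it lower. That call was lost with no filter and in fits that left out a treatment. Tnf was lower at -0.57 ± 0.12 on 1 probe set and matched on another at 0.15. The lymphotoxin genes Ltb (-2.54 ± 0.09) and Lta (-1.40 ± 0.13) and Il16 (-2.20 ± 0.10) were lower, as were Il2rg, the shared cytokine receptor chain (-0.65 ± 0.07), Il6r (-0.89 ± 0.11) and Osm (-1.37 ± 0.14).

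Complement genes exceeded in 14 of 19 cases, with 1 matching and 4 lower and a median of 2.28. Of the 19, 4 were tested through the grafts alone and could hardly come out lower, so the count and median partly reflect the filter. C1r, a protease of the C1 complex, read 3849.9, 5969 and 6314 in the grafts and 204, 156 and 208 in the T cells (4.69 ± 0.18), and its partner C1s lay at 5.67 ± 0.20. In the same complex the recognition chains C1qa, C1qb and C1qc, made by macrophages, lay at 0.62 ± 0.08, 0.79 ± 0.09 and 0.74 ± 0.08. C3, the central component, read 3603, 7603 and 8842 in the grafts and 468, 199.5 and 239.8 in the T cells (4.39 ± 0.41) and was lowest in the untreated graft. The regulators Cd55 (2.28 ± 0.11), Cd59b (2.53 ± 0.09) and Clu (6.01 ± 0.09) exceeded. Properdin, Cfp (-1.43 ± 0.18), and Masp2 (-1.78 ± 0.18) were lower.

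Adhesion genes gave 5 above, 6 matching and 7 lower of 18. Sele, the endothelial E-selectin gene, read 524, 716 and 556 in the grafts and 6.20, 4.70 and 25.4 in the T cells (4.51 ± 0.26), and Icam1, the ligand of the T cell integrin LFA-1, read 3593, 4102 and 4257 in the grafts and 1478, 1176 and 1224 in the T cells (1.62 ± 0.12). Itgal, which encodes the alpha chain of LFA-1, matched at -0.09 (-0.35 to 0.18), whereas its beta chain Itgb2 was lower at -0.78 ± 0.07. Vcam1, a ligand for leukocyte integrins, matched at -0.14. Ptprc, the pan-leukocyte antigen CD45, read 4358, 4429 and 4606 in the grafts and 9945, 8304 and 8389 in the T cells. Its difference of -0.98 ± 0.08 corresponds to a T cell level 1.98-fold that of the graft, and Coro1a and Cd53, also shared by leukocytes, lay at -0.92 ± 0.06 and -0.70 ± 0.06. The gut-homing integrin chain Itgb7 lay at -2.18 ± 0.10.

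B and plasma cell genes were lower in 13 of 14 cases, with a median of -2.17. Cd79b read 67.5, 140.2 and 104 in the grafts and 2009, 2766 and 2409.7 in the T cells, at -4.36 ± 0.12, and Ms4a1 (CD20) lay at -3.63 ± 0.19, Cr2 at -4.02 ± 0.16 and Jchain at -3.36 ± 0.15. Xbp1, a secretory regulator used well beyond plasma cells, was the exception at 1.10 ± 0.07. The summed intensity of the list ran from 9401 to 9593 in the grafts and from 27139 to 29273 in the T cells.

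Proliferation genes lay close to the T cell level, 13 of 25 above, 12 matching and 0 lower, with a median of 0.30 and no difference of 1 or more. Mki67, the marker of dividing cells, read 1957, 1785 and 1565 in the grafts and 1491, 849.7 and 986 in the T cells (0.70 ± 0.13, adjusted p = 0.00225), and the cell cycle kinase Cdk1 lay at 0.66 ± 0.13. Pcna, the replication clamp, matched at -0.03 (-0.18 to 0.13). The count above the T cell level was 8 with median centring and 4 without the cyclosporine arrays.

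The day 7 difference was compared with the differences on days 1 and 3 in a fit of all 18 arrays. For 220 of 321 immune genes tested the graft minus T cell difference was larger on day 7, and for 14 it was smaller. Among all 11795 genes tested, 23.2% rose and 25.2% fell. Without the untreated arrays 22 immune genes fell. The ratio of 3' to 5' signal on an array is a measure of RNA integrity. For actin it was 1.41 to 1.43 in day 7 grafts and 1.64 to 2.44 in grafts of days 1 and 3. Over the T cell arrays the actin ratio was 1.27 to 1.40. The Gapdh ratio did not separate the days, at 1.513 to 1.542 in day 7 grafts and 1.495 to 1.649 in earlier grafts. The part of RNA integrity in the change was not tested.

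T cell receptor genes moved together, 21 of 22 with a larger difference on day 7 and a median change of 2.42. The list's median difference was -5.24 on day 1, -5.18 on day 3 and -1.87 on day 7. Cd3e moved from -5.91 and -5.48 to -1.03, with graft means of 7.26, 7.77 and 12.20 and T cell means of 13.17, 13.24 and 13.23 on days 1, 3 and 7 (log2), a change of 4.66 ± 0.43 (adjusted p = 4.72e-06). Cytotoxic genes changed in 13 of 17 cases. Gzmb went from -2.03 and -1.90 to 0.74 (2.70 ± 0.14, adjusted p = 9.50e-08) and Prf1 from -4.08 and -3.78 to -0.79 (3.14 ± 0.14). Naive T cell genes changed in 4 of 8 cases, with a median of 0.58.

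For 55 of the 313 immune genes the graft lay below T cells in all 3 treatments on both day 1 and day 3, and above them in all 3 on day 7, against 2.11% of all genes. All 55 also passed the test of the change. That test reads the same gaps that chose these genes, so it adds no separate support. Interferon gamma targets gave 16 of 30, type I interferon genes 12 of 23, MHC class II genes 5 of 10 and MHC class I genes 7 of 15. The T cell receptor, macrophage, B cell, neutrophil and chemokine receptor lists gave 0, as did those of naive T cells and adhesion. Ubd moved from -1.60 on day 1 and -1.17 on day 3 to 3.89. Its graft means were 7.28, 8.32 and 13.62 and its T cell means 8.87, 9.48 and 9.74 on days 1, 3 and 7 (log2). On the probe set used, Socs1 moved from -2.48 and -2.26 to 0.91 and Tap1 from -2.08 and -1.93 to 1.04. Ido1 was near the T cell level earlier (0.43 and 0.37) and changed by 5.40 ± 0.23 (adjusted p = 3.89e-08), the widest change among the interferon gamma targets. Ifng changed by 1.99 ± 0.44 (adjusted p = 0.00302). The C1q chains crossed as well, C1qa from -1.70 and -1.12 to 0.62.

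**Figure D4:**
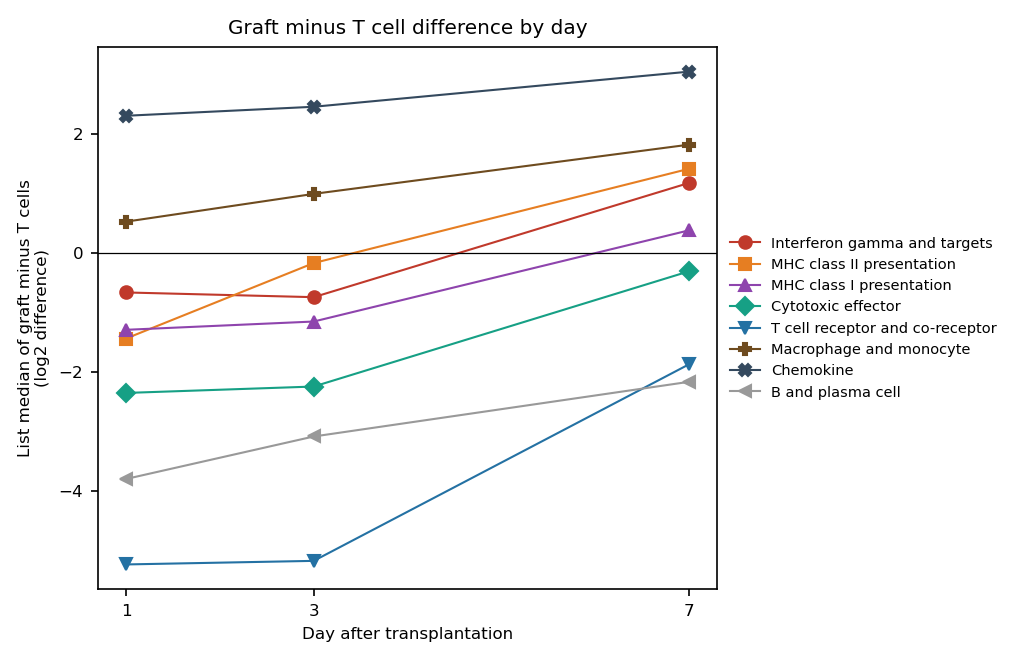
Median graft minus T cell difference of 8 gene lists on days 1, 3 and 7, on the log2 scale, over the genes tested on day 7 and the mean of 3 treatments. MHC and interferon gamma lists cross 0 between days 3 and 7, the T cell receptor list stays below 0, and macrophage and chemokine lists lie above 0 on every day.

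The opposite change was seen in the endothelial list, where 9 of 12 genes fell and 0 rose. Vwf, the clotting factor of endothelial cells, went from 1.59 and 1.56 to -0.42 (-2.00 ± 0.16, adjusted p = 1.61e-06). Among 29 chemokines 12 rose and 5 fell, with Cxcl3 at -2.25 ± 0.24 and Ccl21 at -1.23 ± 0.25.

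The 3 treatments were compared gene by gene. Of 313 immune genes, 285 had the same sign in all 3 pairs, the median range between the 3 differences was 0.39, and 34 had a range of 1 or more. The shares over all genes were not computed, so these counts are not read as a trait of immune genes. With 1 array against 1 in each treatment these values carry no test. The widest range was in Arg1, with differences of 6.98, 4.60 and 4.80. C3 (2.90, 5.14 and 5.11) and Ccl19 (2.40, 4.14 and 4.24) ran the other way, with the untreated pair lowest, and so did Cxcl13 (3.69, 4.66 and 5.13). Ccl27 (2.82, 0.82 and 1.10), Ccr1 (3.48, 1.85 and 1.97), Fcgr2b (2.27, 1.15 and 1.01) and Oasl (1.54, 0.47 and 0.26) were highest in the untreated pair. The list median of interferon gamma targets was 1.25 in the untreated pair, 1.24 with cyclosporine and 1.06 with cyclosporine plus peptide, and that of the T cell receptor list -2.03, -1.81 and -1.94.

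Set against the mean of the T cell receptor list on each array, in place of the array's own scale, the median difference was 2.46 for immune genes and 1.99 for all genes. On that scale 266 immune genes were called higher and 30 lower, but 96.8% of all genes were called higher and 1.23% lower, so nothing is read from the first count.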

How the data were processed

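RNA of 9 heart and 9 T cell samples was measured on 1-colour Affymetrix rat arrays. The authors deposited 1 table of linear intensity, 1 value per probe set and array; how it was background-corrected and normalized is not given in the sources used here, and 0.138% of values lie below 0. Control probe sets (57 of 31099) were left out. Gene names come from GEO's platform annotation (20826 probe sets with 1 symbol, 436 with several, 9780 with none). Each gene was read from its probe set of highest mean over 18 arrays.

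Values were taken as log2(max(intensity, 0) + 16). Probe sets above their array's 40th percentile on at least 3 arrays were tested with limma 3.58.1 (R 4.3.3), with moderated variances that follow the mean intensity and Benjamini-Hochberg adjustment over all probe sets tested. The day 7 fit used 6 arrays with treatment as a block (2 residual degrees of freedom), and the comparison of days used all 18 (8 residual degrees of freedom). The scripts were tested on simulated data. Promoters are RefSeq's (GRCr8), 1 per gene. Alternatives tried were quantile normalization, median centring, other pseudocounts and filters, no block, all 18 arrays, a narrower match interval, and leaving out each treatment. Genes named were drawn from immune genes that exceed or match the T cell level, the 6 largest called differences per list and direction, all genes of short lists, the lists' defining markers and the 12 largest differences beyond the lists in each direction. Not all of these are named. Other genes named, mainly further members called lower, were chosen after their values were seen. The members and lists were chosen with earlier results of these data known. Samples of 1 treatment did not pair across tissues: their deviations from the tissue means correlated at -0.0244, 0.0981 and 0.0130, none over 0.1.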

Additional observations from a re-analysis of the deposited data

Results flagged for a closer look

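The difference between graft and T cells itself differed between days for many immune genes. By the interaction term of a limma fit over 18 arrays it was larger on day 7 than on days 1 and 3 for 220 immune genes, with a median change of 1.22 over all 321 tested, and smaller for 14. For 55 immune genes it lay below 0 in all 3 treatments on days 1 and 3 and above 0 in all 3 on day 7. Every pair of these genes thus changed side. All 55 passed the interaction test as well, but that test reads the same gaps that chose them and adds no separate support.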

How the results depend on the processing

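No list gene's call reversed under any alternative. Without the filter, without the block or with every array of the series in the fit, each difference is unchanged by construction. A reversal could therefore not occur in those settings, which test only whether a call is kept. Of 337 called list genes, 298 kept their call in all alternatives and 39 lost it in at least 1. The count of immune genes above the T cell level, 164, ran from 156 to 167 when each treatment was left out. The count matching, 49, was 31 when the interval had to lie within 0.5, by construction a narrower rule. Without the replicate block, which pairs graft and T cells of 1 treatment, 165 exceeded and 46 matched. Of all probe sets, 5073 rose on day 7 against days 1 and 3 and 5082 fell; leaving out each treatment gave 3098 to 4297 and 3077 to 4238, both lowest without cyclosporine, on fewer arrays. The 14 immune genes that fell became 10 to 22, with 22 without the untreated arrays; the cause was not tested. The 55 genes that changed side were 54 with quantile normalization or centring and 57 to 69 with a treatment left out, settings chosen after seeing the data. Leaving out a treatment drops conditions from the rule, so by construction that count could only stay or rise. Genes not well above the floor in T cells have differences set partly by the added 16.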

Other observations

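Outside the immune lists, heart muscle genes lay far above the T cell level. The skeletal actin gene Acta1 lay at 8.69 ± 0.12 and Myh7, the slow myosin heavy chain, read 16868, 18263 and 17445 in the grafts and 19.5, 11.8 and 53.2 in the T cells (8.74 ± 0.23). Myh6, the fast cardiac myosin heavy chain, read 859, 2035 and 1783 in the grafts, lowest in the untreated recipient, and Pdgfra, a receptor of fibroblasts, read 1618, 3222 and 3883, also lowest there. These graft readings come from 1 array per treatment and carry no test.

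Among the genes furthest below the T cell level outside the lists were Car1, a carbonic anhydrase of red cells, which read 52.7, 44.6 and 64.1 in the grafts and 2433, 1208 and 1737 in the T cells (-4.65 ± 0.18), the killer lectin gene Klra22 (-4.56 ± 0.15), the prostaglandin D synthase gene Hpgds (-4.34 ± 0.15) and the kinase gene Pim2 (-3.83 ± 0.11). Among erythroid list genes Hbb, a haemoglobin chain, read 6669, 12839.5 and 14318 in the grafts and 15297, 15849.8 and 14911 in the T cells (-0.52 ± 0.19), with the untreated graft lowest. Without the untreated arrays its difference was -0.18 and no longer called, and the call was also lost with no block and with all 18 arrays (adjusted p = 0.0748 and 0.0758). Summed over the erythroid and platelet list, intensity ran from 9193 to 17972 in the grafts and from 19948 to 21653 in the T cells.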
